A study of Mus musculus with 4 samples.

Results

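The insulin-like growth factor axis was read in 4 mouse cerebellar tumors through 9 genes and their 20 probe sets, of 13320 genes and 24679 probe sets with a single gene symbol in the table. The genes were listed by name: the ligands Igf1 and Igf2, the imprinted RNA H19, the receptors Igf1r and Igf2r, the binding proteins Igfbp2, Igfbp3 and Igfbp5, and the adaptors Irs1 and Irs2. All probe sets that the platform annotation gives to one of these symbols alone were taken. H19, the remaining gene of the 10 listed, has no such probe set and is not read here. The tumors carry the genotype Chd7-het on a mixed CD1xC57BL/6 background, and they are called tumors 1, 2, 4 and 5 after the numbers in their titles. Each was hybridised to 1 Affymetrix Mouse Genome 430 2.0 array. The labels name no other allele, no promoter or Cre line, no age and no treatment, and they place every tumor in the same group, so the comparisons here are among tumors of the same genotype and say nothing of the effect of Chd7 loss. They do not say whether the tumors came from separate animals, and p-values measure only the spread between these 4 samples.

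Insulin-like growth factors are secreted peptides that drive growth and survival by binding the tyrosine kinase IGF1R, which signals through the adaptors IRS1 and IRS2 to the PI3K and AKT pathway. IGF2R binds IGF2 without such signalling and takes it to lysosomes, and the binding proteins hold both ligands outside the cell and set how much reaches the receptor. Igf2 is imprinted and expressed mainly from the paternal allele in the mouse, next to the maternally expressed H19. In mouse models of SHH medulloblastoma, a tumor of cerebellar granule cell progenitors, Igf2 is known as a gene needed for tumor growth.

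Both imprinted neighbours also carry microRNAs. The only probe set for H19 is annotated to H19 and to Mir675, the microRNA gene inside it, so its signal could not be given to either. The mature sequences within the H19 and Igf2 genes are shown because the array did not separate the first from its host. They are RefSeq sequences on GRCm38.p6, minus strand, written 5′ to 3′, with the seed (bases 2 to 8) in capitals.
mmu-miR-675-5p, within H19, chr7:142577112-142577133: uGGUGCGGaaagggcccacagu
mmu-miR-675-3p, within H19, chr7:142577078-142577099: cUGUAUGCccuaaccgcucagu
mmu-miR-483-5p, within Igf2, chr7:142654968-142654989: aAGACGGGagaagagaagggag
mmu-miR-483-3p, within Igf2, chr7:142654932-142654952: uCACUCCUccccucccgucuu
The 4 seeds differ from each other. Mature microRNAs of this length were not measured.

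RefSeq gave promoter windows of 300 bases for 9 of the 10 genes, 13 windows in all. Igf2 has 4 of them, and the array values do not tell its starts apart. Of the probe sets tested below, that of Igf2 ranged widest among the ligands and the brightest of Igf1r among the receptors. For this reason the Igf2 window nearest to H19 and the single window of Igf1r are shown. Capitals mark the GC box letters GGGCGG, searched on both strands.
Igf2, chr7:142657447-142657746, GRCm38.p6, minus strand: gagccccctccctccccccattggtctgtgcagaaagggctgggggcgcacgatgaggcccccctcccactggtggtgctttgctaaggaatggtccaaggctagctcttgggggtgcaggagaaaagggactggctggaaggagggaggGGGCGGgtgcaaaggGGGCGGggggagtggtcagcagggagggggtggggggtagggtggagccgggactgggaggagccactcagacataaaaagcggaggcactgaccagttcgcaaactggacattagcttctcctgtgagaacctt
Igf1r, chr7:67952007-67952306, GRCm38.p6, plus strand: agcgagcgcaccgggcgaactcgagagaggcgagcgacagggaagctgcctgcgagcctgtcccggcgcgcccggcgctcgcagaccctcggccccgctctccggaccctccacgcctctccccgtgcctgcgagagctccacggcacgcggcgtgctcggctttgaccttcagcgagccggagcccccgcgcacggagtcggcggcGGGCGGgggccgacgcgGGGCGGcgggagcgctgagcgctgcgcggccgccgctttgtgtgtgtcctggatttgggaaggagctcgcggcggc
Each of these windows held 2 GC boxes, with a GC content of 63.3% for Igf2 and 76% for Igf1r, against a median of 52.7% over all 32851 mouse windows. GGGCGG was found in 7 of the 13 windows of the listed genes and in 35.7% of all windows. TATAAA was in 0 of 13 (13.6% of all windows), and GACCACCCA, the consensus of the GLI factors of SHH signalling, in 0 of 13 (0.253% of all windows). Both were searched on both strands. As neither was found in these windows, no match overlapped a GC box, and a match is a description of the sequence only.

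Values are log2 signals of MAS5, the Affymetrix method that summarises each probe set on its own array. A signal under 5.12 (34.8 linear), the median over arrays of the 40th percentile, was taken as too low to read and is called below the floor. Between 59.1% and 61.3% of probe sets lay above it on each array. The 9 markers of granule cell progenitors and SHH tumor cells, among them Atoh1, Barhl1 and Gli1, lay above the floor in all 4 tumors, with a summed linear signal between 12292 and 12647. Within this sum members differed in tumor 1, given as log2 differences from the mean of the other 3. Atoh1 lay at -0.83, Mki67 at -0.45, Gli1 at -0.44, Barhl1 at -0.36 and Ptch1 at -0.21. Pax6 lay at 1.26, Neurod1 at 0.63, Zic2 at 0.33 and Zic1 at 0.030. Adjusted p in limma lay between 0.0525 (Pax6) and 0.984 (Zic1). Tumor 1 stood apart from the rest in the table as a whole. Against the other 3 tumors, 118 of 13525 probe sets passed in tumor 1 (limma with an intensity trend, Benjamini-Hochberg adjusted p under 0.05 and 2-fold or more), and 0 passed in tumors 2, 4 and 5, with 852, 84 and 480 at an unadjusted p under 0.05. The count in tumor 1 was 308 without tumor 2 and 293 without tumor 5, and without tumor 1 the counts were 88 in tumor 2 and 85 in tumor 5. With 1 tumor against 3, an exact permutation test cannot go below p = 0.25, and the limma fit assumes that the lone tumor varies like the others.

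Igf2 was the member that varied most among those bright enough to test. Its probe set 1448152_at read 8.29 in tumor 1, 8.03 in tumor 2, 6.83 in tumor 4 and 7.57 in tumor 5 (log2 signal, mean 7.68 ± 0.64, SD, n = 4). All 4 tumors lay well above the floor, and tumor 4 was lowest, 2.76-fold under tumor 1. The log2 difference of tumor 4 from the mean of the other 3 was -1.13 (SE 0.30, unadjusted p = 0.00801, adjusted p = 1.00 in limma), tumor 4 reading 6.83 and tumors 1, 2 and 5 averaging 7.96 ± 0.36 (SD, n = 3). Tumor 1 differed by 0.82 (SE 0.39, adjusted p = 0.532). Neither difference passed. The other Igf2 probe set, 1415931_at, was below the floor in every tumor (3.05, 2.23, 0.00 and 2.29 in tumors 1, 2, 4 and 5) and gives no second reading of the gene.

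A range of 2-fold or more over the 4 tumors was reached by 1 of the 11 member probe sets past the filter on mean signal, that of Igf2, and by 5.48% of all 13525 probe sets tested. The same Igf2 probe set was 2-fold or more apart between tumors 1 and 4, where 2.36% of all probe sets were, and between tumors 2 and 4, where 0.732% were. In the other 4 pairings 0 of the 11 were 2-fold apart. Of all probe sets, 2.49% were so between tumors 1 and 2, 2.96% between 1 and 5, 1.65% between 2 and 5 and 0.495% between 4 and 5. The median range of the 11 was 0.54 on the log2 scale, against 0.39 over all probe sets tested. Without tumor 4 no member reached 2-fold.

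**Figure D1:**
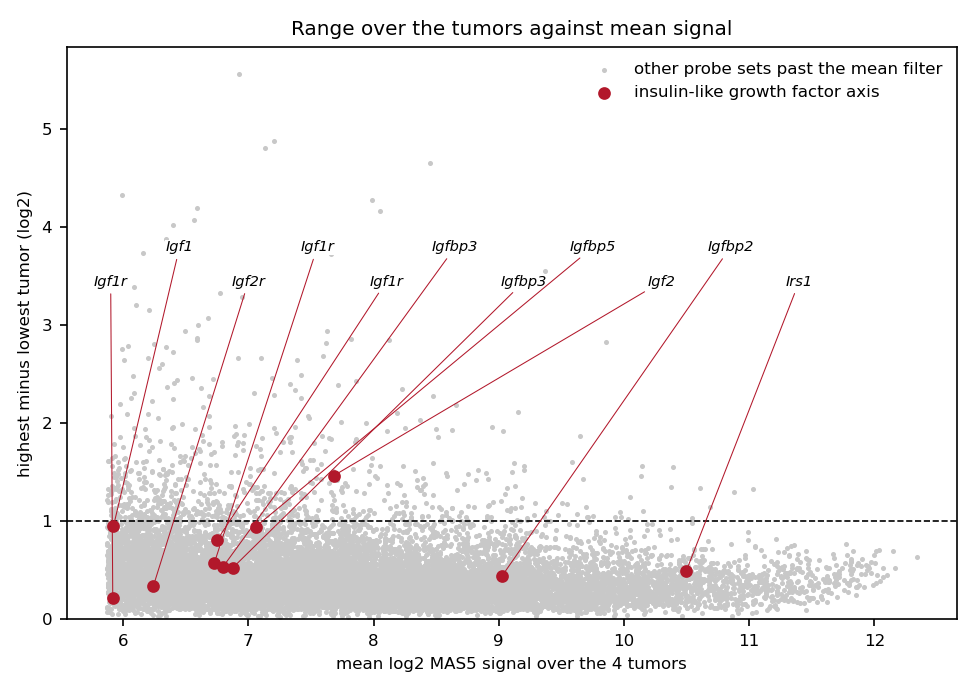
Highest minus lowest tumor (log2, y axis) against the mean log2 MAS5 signal over the 4 tumors (x axis) for 13525 probe sets (grey), with the 11 member probe sets in red; the dashed line marks 2-fold. Igf2, at 1.46, is the member above the line, and Igf1 and Igfbp5 lie just under it at 0.95 and 0.94.

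Igf1, the other ligand, was read by 4 probe sets that fell into discordant patterns. The brightest, 1452014_a_at, read 5.52, 5.87, 5.82 and 6.47 in tumors 1, 2, 4 and 5 (log2 signal, 5.92 ± 0.40, SD, n = 4). Tumor 5 was highest there, by 0.73 over the mean of the other 3 (SE 0.25, unadjusted p = 0.0236, adjusted p = 0.954 in limma). A dimmer probe set, 1419519_at, was likewise highest in tumor 5 (5.65) and lowest in tumor 1 (4.88, below the floor). On 1437401_at the order turned: 5.48, 6.41, 6.17 and 5.15 in tumors 1, 2, 4 and 5 (5.80 ± 0.59, SD, n = 4), with tumor 5 lowest. The fourth, 1434413_at, ran the same way (5.13, 6.00, 5.91 and 5.09). Which tumor had most Igf1 signal therefore depended on the probe set, and 3 of the 4 probe sets lay below the mean filter.

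Igf1 is made by microglia and macrophages among other cells. All 9 markers of those cells lay above the floor in tumors 2, 4 and 5 and 8 of 9 in tumor 1, where Ptprc was below it. Their summed linear signal was 3330, 4088, 5921 and 4498 in tumors 1, 2, 4 and 5. Tumor 1 was lowest in this sum and on 2 of the 4 Igf1 probe sets. Tumor 4 was highest in this sum and on 0 of the 4. The part of these cells in the Igf1 signal was not tested, and in bulk tissue fewer cells of a type and less RNA per cell cannot be told apart.

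Igf1r, the signalling receptor of both ligands, was higher in tumors 1 and 2 than in tumors 4 and 5 on its brighter probe sets. The brightest, 1428967_at, read 6.96, 7.19, 6.48 and 6.38 in tumors 1, 2, 4 and 5 (log2 signal, 6.75 ± 0.39, SD, n = 4), and 1452982_at read 6.89, 7.01, 6.44 and 6.57. On both, the values of tumors 1 and 2 did not overlap those of tumors 4 and 5, a split chosen after the values were seen. Of all 13525 probe sets tested, 21.3% placed tumors 1 and 2 above tumors 4 and 5, as did 5 of the 11 of the axis. These 5 were the 2 of Igf1r and the brightest of Igf2, Igf2r and Igfbp5. Igf2r and Igfbp5 were so by a narrow margin only. Igf2r read 6.204 in tumor 2 and 6.194 in tumor 4, and Igfbp5 read 7.052 in tumor 1 and 7.013 in tumor 4. Tumor 2 stood farthest from the others on 1428967_at, with 7.19, while tumors 1, 4 and 5 averaged 6.61 ± 0.31 (SD, n = 3), a log2 difference of 0.58 (SE 0.28, adjusted p = 0.789 in limma). A dimmer probe set, 1426565_at, lay between 5.81 and 6.02 and did not show this order, with tumor 1 lowest. The annotation draws the 2 brighter ones from one source sequence and 1426565_at from another, which it shares with 1452108_at. That probe set and 1446303_at were below the floor in all 4 tumors.

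Igf2r, which clears IGF2, varied little. Its brighter probe set 1424112_at read 6.45, 6.20, 6.19 and 6.11 in tumors 1, 2, 4 and 5 (log2 signal, 6.24 ± 0.15, SD, n = 4). Tumor 1 was highest, by 0.28 over the mean of the other 3 (SE 0.21, adjusted p = 0.734 in limma). The dimmer 1424111_at read 5.48, 5.50 and 5.43 in tumors 1, 2 and 4 and fell below the floor in tumor 5 (4.93). On both probe sets tumor 5 was lowest.

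**Figure D2:**
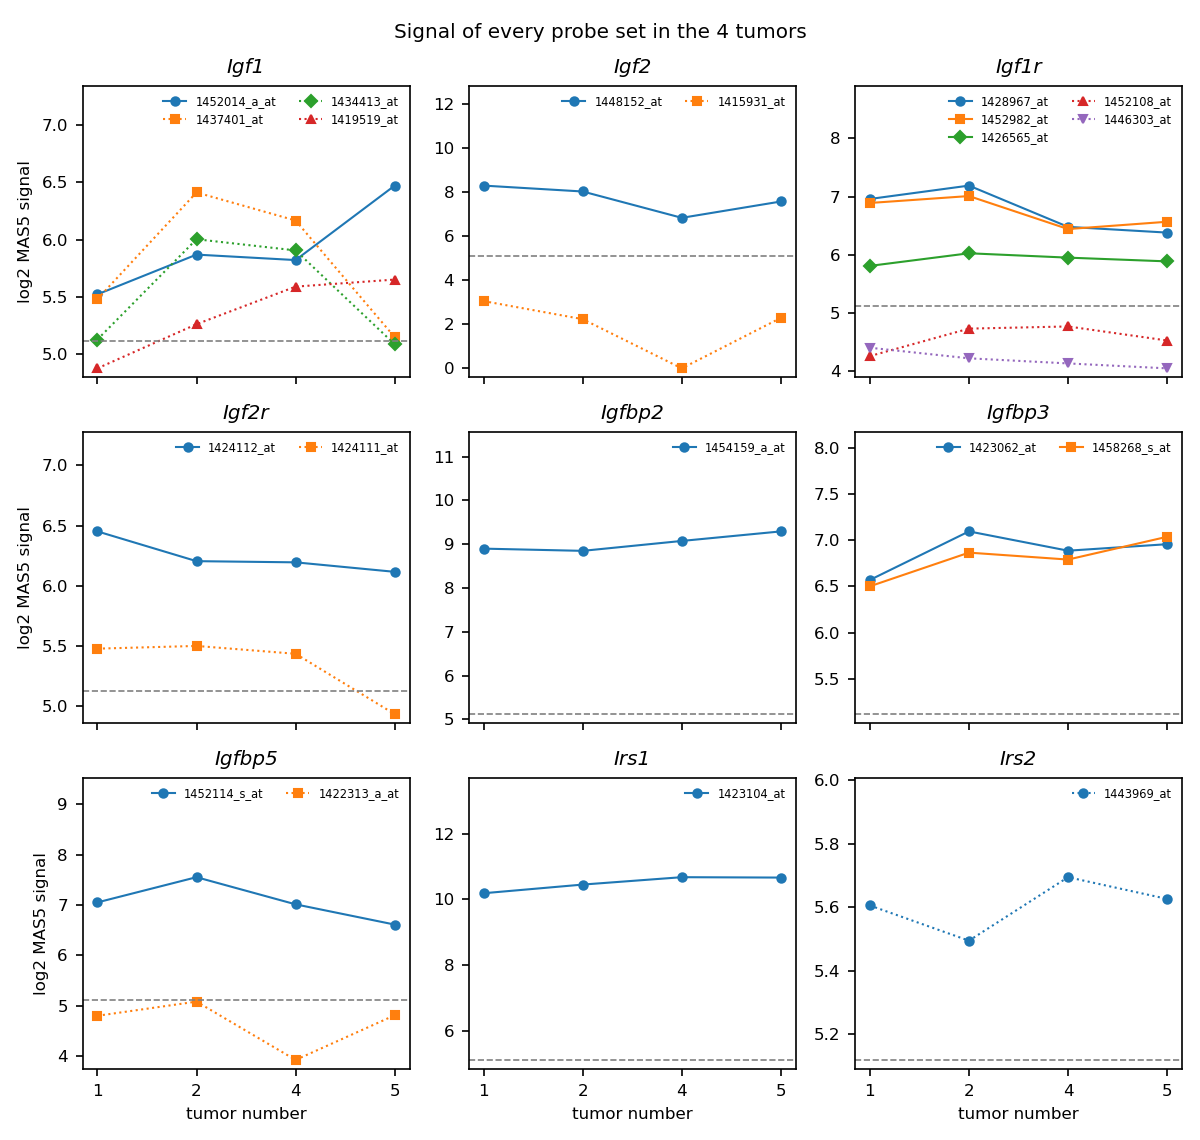
Log2 MAS5 signal (y axis) of all 20 probe sets of the 9 genes in tumors 1, 2, 4 and 5 (x axis), 1 panel per gene with its own scale. Each marker is 1 array, lines only join the values of a probe set, solid lines passed the mean filter, and the grey dashed line is the floor of 5.12. The Igf1 probe sets cross, while the 2 brightest of Igf1r run together.

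Igfbp5 had the widest range of the binding proteins Igfbp2, Igfbp3 and Igfbp5 among probe sets past the mean filter. IGFBP5 binds both ligands and the extracellular matrix, and its probe set 1452114_s_at read 7.05, 7.55, 7.01 and 6.61 in tumors 1, 2, 4 and 5 (log2 signal, 7.06 ± 0.39, SD, n = 4). Tumor 2 was highest, at 7.55 against 6.89 ± 0.24 in the other 3 (SD, n = 3), a log2 difference of 0.66 (SE 0.24, unadjusted p = 0.0325, adjusted p = 0.784 in limma). Tumor 5 was lowest, with a difference of -0.59 (SE 0.27, adjusted p = 0.954). The second probe set, 1422313_a_at, was below the floor in all 4 tumors (3.93 to 5.08).

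Igfbp3, the main carrier of both ligands in serum, was lowest in tumor 1 on both of its probe sets. They read 6.57, 7.09, 6.89 and 6.96 (1423062_at) and 6.50, 6.87, 6.79 and 7.04 (1458268_s_at) in tumors 1, 2, 4 and 5 on the log2 scale. Tumor 1 differed from the mean of the other 3 by -0.41 (SE 0.20, adjusted p = 0.542 in limma) on the first and by -0.40 (SE 0.21, adjusted p = 0.571) on the second. The probe sets agreed on the lowest tumor and not on the highest, which was tumor 2 on one and tumor 5 on the other.

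Igfbp2, a binding protein common in fetal brain and in cerebrospinal fluid, had 1 probe set, 1454159_a_at. It read 8.90, 8.85, 9.07 and 9.29 in tumors 1, 2, 4 and 5 (log2 signal, 9.03 ± 0.20, SD, n = 4). Tumor 5 was highest, by 0.35 over the mean of the other 3 (SE 0.18, adjusted p = 0.954 in limma). Choroid plexus, which secretes the fluid, is a known source of Igfbp2 and Igf2. Its 7 markers summed to a linear signal of 602, 171, 158 and 5288 in tumors 1, 2, 4 and 5, with 1, 1, 2 and 6 of 7 above the floor. Ttr, the transthyretin gene that defines this epithelium, read 3.12, 2.14, 5.70 and 12.16 on the log2 scale, so that it made up most of the sum in tumor 5. Kcnj13 was above the floor only in tumor 5. Aqp1 was below the floor in every tumor, tumor 5 included, and at the lowest listed value, 0.00, in tumor 2. Clic6, the single marker of the 7 past the mean filter, was highest in tumor 1: it read 9.15, 7.11, 6.29 and 8.73 in tumors 1, 2, 4 and 5. The part of this tissue in the signal of Igfbp2 or Igf2 was not tested.

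Irs1, the adaptor that docks on the activated receptors, read 10.19, 10.45, 10.68 and 10.67 in tumors 1, 2, 4 and 5 on 1423104_at (log2 signal, 10.50 ± 0.23, SD, n = 4). Tumor 1 was lowest, at 10.19 against 10.60 ± 0.13 in the other 3 (SD, n = 3), a log2 difference of -0.41 (SE 0.18, adjusted p = 0.475 in limma). Irs2 had the smallest range of all 20 probe sets, 0.20: 1443969_at read 5.61, 5.50, 5.69 and 5.63. It was above the floor in every tumor but below the mean filter of 5.87. It was therefore tested only with no filter on low means, where it did not pass.

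Over the 11 member probe sets past the filter, 0 passed in tumor 1, where 0.872% of all probe sets did (0.739% higher and 0.133% lower), and 0 in tumors 2, 4 and 5, where 0% did. Of these 44 limma comparisons, 3 had an unadjusted p under 0.05: Igf2 in tumor 4, Igfbp5 in tumor 2 and Igf1 in tumor 5. At that level lay 10.9% of all probe sets in tumor 1, where no member did, 6.3% in tumor 2, 0.621% in tumor 4 and 3.55% in tumor 5. The lowest adjusted p was 0.475, that of Irs1 in tumor 1. Without tumor 2 the adjusted p of Irs1 in tumor 1 was 0.0252, at a log2 difference of -0.48 (SE 0.095), under the 2-fold needed to pass. With tumor 4 or tumor 5 left out instead, it was 1.00 and 0.785. Without tumor 1, Igf1r in tumor 2 differed by 0.76 (SE 0.20, adjusted p = 0.0728). Over the brightest probe sets of the 8 genes, the median log2 difference was -0.090 in tumor 1, 0.12 in tumor 2, -0.061 in tumor 4 and -0.019 in tumor 5. Over all probe sets tested it was -0.031, -0.0033, -0.0053 and 0.025. Of the 9 probe sets below the filter, 1 came past it once tumor 1 was left out, 1437401_at of Igf1, and the rest were not tested there. It passed in tumor 5, among the calls counted above for that fit, at -1.14 from the mean of tumors 2 and 4 (SE 0.27). Its brighter companion 1452014_a_at had tumor 5 highest.

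**Figure D3:**
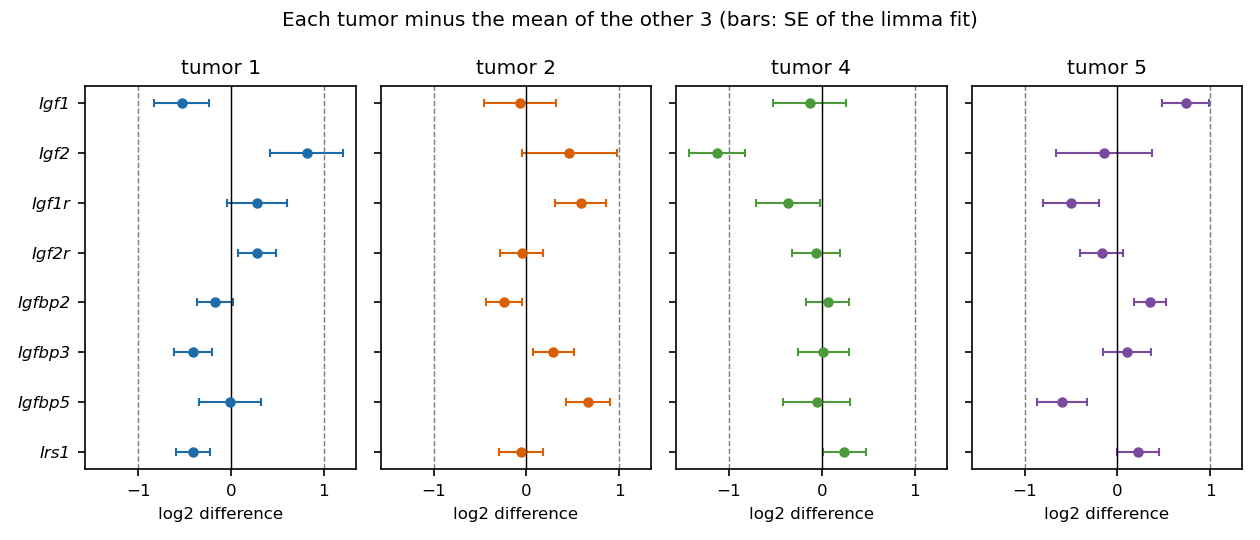
Log2 difference of each tumor from the mean of the other 3 (x axis, bars show the SE of the limma fit) for the brightest probe set of the 8 genes past the mean filter (y axis), 1 panel per tumor; dashed lines mark 2-fold. Igf2 in tumor 4, at -1.13, is the single value beyond a dashed line, and none passed the test.

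Other genes of the pathway were read from lists of 53 genes, of which 41 had a probe set with that symbol alone and 27 passed the mean filter. Of these 27, 0 passed in any tumor in limma, with 9 of 108 comparisons at an unadjusted p under 0.05. The shares of all probe sets at that level, given above, were 10.9%, 6.3%, 0.621% and 3.55% in tumors 1, 2, 4 and 5. A range of 2-fold or more was reached by 2 of the 27 (7.41%, against 5.48% of all probe sets): Plagl1 and Htra1. Plagl1, an imprinted zinc finger factor known in the mouse to act on Igf2 and H19, read 8.73, 8.54, 7.26 and 6.89 in tumors 1, 2, 4 and 5 (log2 signal). Its probe set is of a kind (suffix _x_at) that can also bind transcripts of other genes. Tumors 1 and 2 lay above tumors 4 and 5, as in 10 of the 27 pathway genes and in 21.3% of all probe sets tested. The largest difference, that of tumor 5, was -1.29 (SE 0.53, adjusted p = 0.954). Ctcf, the insulator protein that binds between Igf2 and H19, stayed between 9.75 and 10.06. Of the 10 pathway genes with tumors 1 and 2 above tumors 4 and 5, Foxo3 and Pik3r3 were so by a narrow margin only. They read 8.067 and 8.147 in tumor 2 and 8.066 and 8.136 in tumor 4.

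Of the other ligands, receptors and binding proteins, 4 of 10 passed the mean filter, and Igfbp4 and Insr had the widest ranges. Insr, the insulin receptor, which can pair with IGF1R in hybrid receptors, read 7.0 and 7.20 in tumors 1 and 2 and 6.49 and 6.50 in tumors 4 and 5 (log2 signal). It is another of those 10 genes. Its largest difference, that of tumor 2, was 0.54 (SE 0.27, adjusted p = 0.789 in limma). Igfbp4, a binding protein that restrains both ligands, read 7.93, 7.32, 7.84 and 6.98, lowest in tumor 5 (-0.72, SE 0.27, adjusted p = 0.954).

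Among proteases of the binding proteins and their inhibitors, only Htra1 passed the mean filter. HTRA1, a secreted protease that can cut IGFBP5, read 7.87, 6.67, 6.97 and 7.18 in tumors 1, 2, 4 and 5 (log2 signal). Tumor 1 was highest, by 0.93 (SE 0.24, adjusted p = 0.155 in limma). The protease genes Pappa and Pappa2 were below the floor in every tumor.

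Below the receptor, 20 of 30 listed genes passed the mean filter. Their median log2 difference was 0.087 in tumor 1, 0.016 in tumor 2, -0.061 in tumor 4 and -0.053 in tumor 5. The medians over all probe sets tested lay between -0.031 and 0.025. Gab1, a docking protein of PI3K, had the widest range and read 8.45, 7.89, 7.99 and 7.51 (tumor 1 higher by 0.65, SE 0.22, adjusted p = 0.296 in limma). Eif4ebp1, the translation repressor downstream of mTOR, read 8.17, 8.03, 8.36 and 8.69 (tumor 5 higher by 0.50, SE 0.20, adjusted p = 0.954). Grb10, an imprinted adaptor that restrains insulin and IGF1 receptors, lay below the mean filter and was chosen after its values were seen: it read 7.88 and 5.60 in tumors 1 and 2 and was below the floor in tumors 4 and 5 (4.10 and 4.39). With no filter on low means its difference in tumor 1 was 2.60 (adjusted p = 0.10 in limma, not passing). Under that setting Grb14, a related adaptor, passed in tumor 1 at 1.21 (adjusted p = 1.77e-05), reading 6.33 in tumor 1. It was below the floor in the other 3, which therefore had no spread in that fit.

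The profile of Igf2 over the tumors was set beside those of 8497 other genes past the filter, by the root mean square difference of log2 deviations from each gene's mean over the 4 tumors. The nearest were Gucy1a2, a subunit of soluble guanylate cyclase, at 0.10, Itih3, an inter-alpha-trypsin inhibitor heavy chain gene, at 0.16, and Rsad1 at 0.21. Insr stood at 0.35 and rank 105, Igf1r at 0.38 and rank 198, and Plagl1 at 0.50 and rank 1699. With 4 arrays, many genes lie close by this measure. Igf2 is also known from meninges, fibroblasts and vessels. The 9 meningeal and fibroblast markers summed to 784, 765, 739 and 826 linear in tumors 1, 2, 4 and 5, with 6 of 9 above the floor in each. The endothelial and mural sums were 897, 535, 428 and 558, with 4, 2, 2 and 2 of 7 above the floor. Rgs5 made up most of each of these sums (9.22, 8.23, 7.84 and 8.34 in tumors 1, 2, 4 and 5, log2 signal). Cldn5, the other marker of this list past the mean filter, read 7.19, 6.93, 6.50 and 6.92 in tumors 1, 2, 4 and 5. Cdh5, Kdr and Flt1 were below the floor in every tumor. The meningeal markers did not move together: Col3a1 was lowest in tumor 4 (7.66, 7.50, 6.71 and 7.41 in tumors 1, 2, 4 and 5, log2 signal), and Islr was highest there (7.48, 7.90, 8.30 and 8.08). The part of these cells in the Igf2 signal was not tested.

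Tumor 1, highest in Igf2, was also highest in the markers of differentiated neurons and myelin. The 5 Purkinje and inhibitory neuron markers summed to a linear signal of 3329 in tumor 1 and 216, 432 and 202 in tumors 2, 4 and 5, with 5, 2, 5 and 2 above the floor in tumors 1, 2, 4 and 5. The 6 markers of mature neurons summed to 3606 in tumor 1 and 662, 812 and 743 in the others (5, 1, 4 and 3 above the floor), and the 5 measured markers of oligodendrocytes to 3810 in tumor 1 and 430, 943 and 422 in the others (5, 3, 3 and 2 above the floor). Astrocyte and Bergmann glia markers, 7 of 7 above the floor throughout, summed to 3894 in tumor 1 and 3148, 3249 and 3003 in the others. In tumor 1, 6 of these 7 lay above the mean of the other tumors and 1, Gfap, below it. Gfap read 6.55 in tumor 1 and 7.52, 7.69 and 7.40 in tumors 2, 4 and 5 (log2 signal). Aqp4 and Slc1a2 hardly differed in tumor 1 (log2 differences of 0.067 and 0.0029). Among the other tumors these sums did not follow Igf2. Tumor 4, lowest in Igf2, was second in each sum, and tumor 2, second in Igf2, was lowest in that of mature neurons. The part of these cells in the differences of tumor 1 was not tested.

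**Figure D4:**
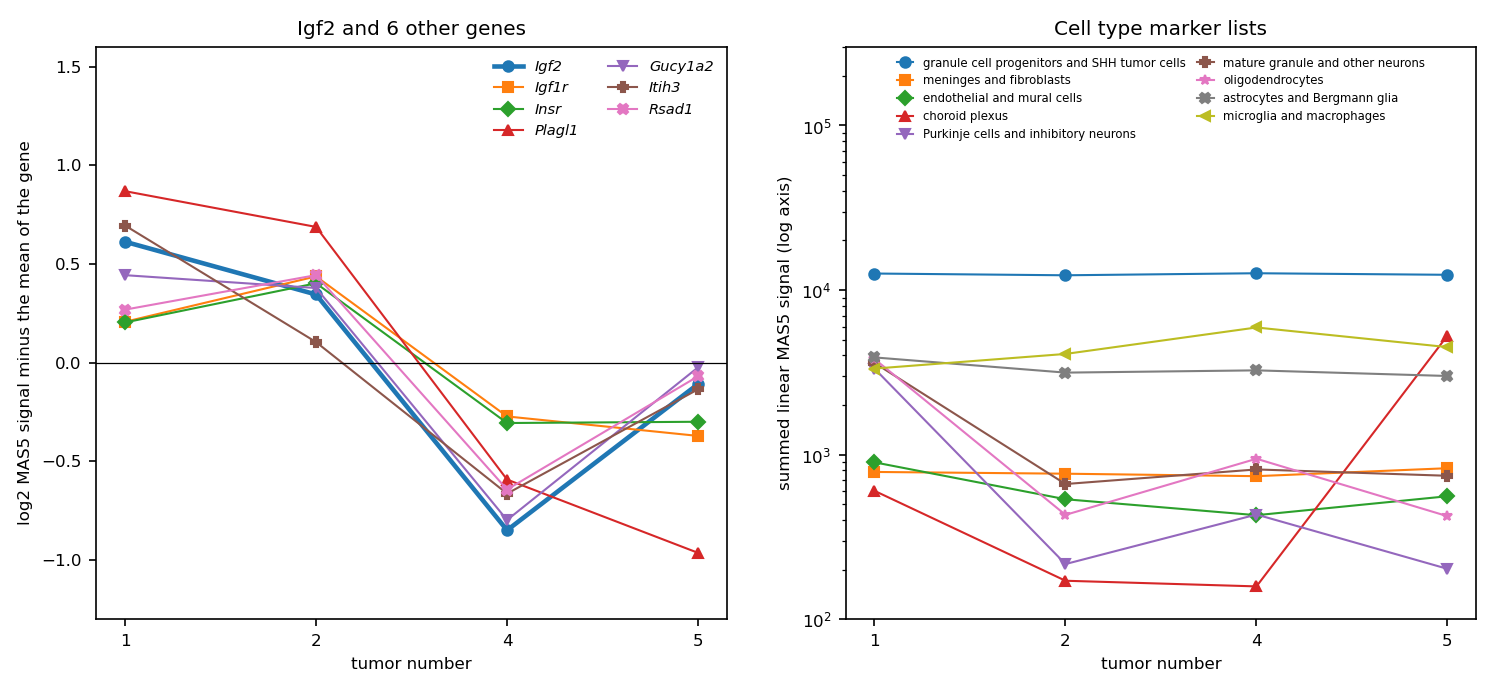
Left, log2 MAS5 signal minus the gene's mean over the tumors (y axis) for Igf2, its 3 nearest genes, Igf1r, Insr and Plagl1 in tumors 1, 2, 4 and 5 (x axis); the last 3 were added after their values were seen. Right, summed linear MAS5 signal (y axis, log scale) of 9 cell type marker lists. Igf2 is lowest in tumor 4, whereas the choroid plexus sum peaks in tumor 5 at 5288 and the neuronal sums in tumor 1.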

How the data were processed

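RNA of 4 tumors was measured, 1 array each. The authors deposited log2 signals, for which the submitters' processing notes name MAS5. Neither a version nor a scaling target was found in the labels. On the linear scale 100% of values fell on steps of 0.1 (to within 0.0001). MAS5 subtracts a local background, so low signals are noisy. Precision is limited by having 4 arrays. No detection calls were used. Of 29304 probe sets, 61 were Affymetrix controls and 24679 had a single gene symbol, 647 several and 3917 none in the platform annotation.

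Signals were raised to the floor (5.12) for tests, not for printed levels. Probe sets with a single symbol and a mean of at least 5.87, the median over the table, were tested (13525). The fit of each tumor against the rest used limma 3.58.1 (R 4.3.3), lmFit and eBayes with trend. It was run on simulated data with a common spread at each intensity level and changes in tumor 1 only. That run cannot show how the fit behaves where probe sets of like intensity differ in spread. A probe set passed at an adjusted p under 0.05 over all probe sets and 2-fold or more. The brightest probe set stood for a gene, and the text gives the tumor farthest from the other 3. Of the pathway lists, passing genes and the 2 with the widest range past the filter are named. The 3 genes nearest in profile are given for members with an SD of 0.5 or more. The members, lists and tests were chosen with earlier results of these data known. Nothing says whether the numbers mark separate litters or batches. Alternatives varied floor, filter, normalization, trend, probe set choice and tumors. Figures used matplotlib 3.10.9.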

Additional observations from a re-analysis of the deposited data

Results flagged for a closer look

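The dimmer Igf2r probe set 1424111_at stood out because tumor 5 lay far from the others: its gap to the nearest tumor was 0.885 of the whole range, above Dixon's 95% critical value for 4 samples. It read 4.93 in tumor 5, below the floor, and 5.48, 5.50 and 5.43 in tumors 1, 2 and 4. The brighter Igf2r probe set read 6.11 in tumor 5 and 6.45, 6.20 and 6.19 in tumors 1, 2 and 4. Of the 20 probe sets checked, 1 was marked in this way, and chance marks about 1 in 20.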

How the results depend on the processing

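The largest tumor difference of each of the 8 tested genes kept its sign and did not pass in all 98 alternative values (with Irs1 in tumor 1 at an adjusted p of 0.0252 without tumor 2, but under 2-fold), and 80 of 81 alternative mean levels stayed within 1 SD; the exception was Irs2, which lies at 5.87 with the floor at the 50th percentile, being raised to that floor. Most of these levels could not move further. Leaving out 1 of the tumors shifts a mean by less than 1 SD, median centring keeps it, and a lower or absent floor left it unchanged. Many of the 98 differences were also fixed, since filter, trend and probe set choices do not alter them. Apart from that of Igf2, these differences were under 2-fold from the start. Igf2 in tumor 4 lay between -1.33 and -0.97. The number of member probe sets with a range of 2-fold or more, 1, became 2 with no filter on low means and 2 with quantile normalization (Igf1 beside Igf2 in both), and lay between 0 (without tumor 4) and 2 (without tumor 1) when a tumor was left out. Member probe sets passing numbered 0 in 55 of 56 fits and 1 in tumor 5 without tumor 1, a range of 0 to 1 over the fits with a tumor left out. Probe sets passing in tumor 1, 118, became 45 with the floor at the 50th percentile and 40 with the filter at the 75th percentile of means, and lay between 131 and 308 with a tumor left out. With no filter, 3, 9 and 10 passed in tumors 2, 4 and 5, where 0 did otherwise; with a tumor left out the counts lay between 0 and 88, 0 and 2, and 2 and 85. Apart from what each setting's own construction shows, the cause was not tested. No paired analysis was possible because the tumors form a single group. Signals near the floor limit the reading of Igf1, Irs2 and the dimmer probe sets.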
